A study of Canis lupus familiaris with 31 samples.

Results

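Lipoprotein lipase clears triglyceride from the blood, and the genes that make it, mature it, hold it at the vessel wall, switch it on and take up what it leaves behind were followed here in whole blood. The 9 genes were LPL, LIPC, LIPA, LMF1, GPIHBP1, APOC2, APOA5, VLDLR and LRP1, chosen by name for their known role, and each matched exactly 1 of the 32704 rows of the count table. Blood was taken from 31 Miniature Schnauzers, a breed prone to high blood triglycerides without another disease. The label HTG marks dogs with this condition. The 13 HTG cases (8 male, 5 female) had high fasting triglycerides and the 18 controls (10 male, 8 female) had normal ones. All were client-owned, fasted older dogs with no treatment named in the labels, and each dog gave 1 library of total RNA with ribosomal RNA removed.

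Lipoprotein lipase is made mainly by fat, muscle and heart cells rather than by blood cells. LMF1 folds the enzyme in the endoplasmic reticulum, GPIHBP1 carries it across capillary endothelium and keeps it there, APOC2 is its obligate cofactor and APOA5 enhances its action, both being secreted by the liver. Remnant particles are then bound by receptors such as VLDLR and LRP1, and LIPA hydrolyses the cholesteryl esters and triglycerides that reach the lysosome.

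The libraries held 14524659 to 41533599 counts per dog, and log10 totals averaged 7.33 in cases and 7.33 in controls (two-sided permutation test, p = 0.995). A set of 10 dogs, 5 cases and 5 controls, stood apart by their small non-coding RNAs. Over 345 such rows their mean level in CPM, counts scaled to a common library size, was at least 1.76 on the log2 scale, against at most 1.45 in the other 21 dogs (8 cases, 13 controls). These are called the high side and the low side below. According to the study's methods, some libraries were made earlier for a pilot and batch was a term in its model. The labels do not say which dogs these were, so the fit here has no batch term, batch was not tested, and results are also given within the sides, which were defined from the libraries alone. Markers of neutrophils, monocytes, platelets, erythroid cells and lymphocytes were all measured, while of the 9 liver markers in the table only SERPINA1, with 1655443 counts over all 31 dogs, passed the filter on low counts, and TTR stayed at 0 throughout.

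The members LIPA, LMF1, VLDLR and LRP1 were detected in every dog and passed the filter on low counts, while LPL, LIPC, GPIHBP1, APOC2 and APOA5 did not. Of the 8 members with any count, 0 differed between HTG cases and controls by edgeR's quasi-likelihood test at an adjusted p of 0.05. Over all 13918 genes past the filter, 5 were called in that comparison, which is 0.0359% of those tested, and against that share 0 of the 4 members past the filter is no result about them. The fit without the filter, used for the sparse members, called the same 5 of 25584 genes (0.0195%). DESeq2 called 84 of the 13918 (0.604%), again with none of the members among them. At an unadjusted p under 0.05, edgeR held 1365 genes, or 9.81% of those past the filter, and none of the 4 members. The fit without the filter held 2962 of its 25584 genes (11.6%) at that level, LIPC and APOC2 among them.

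**Figure D1:**
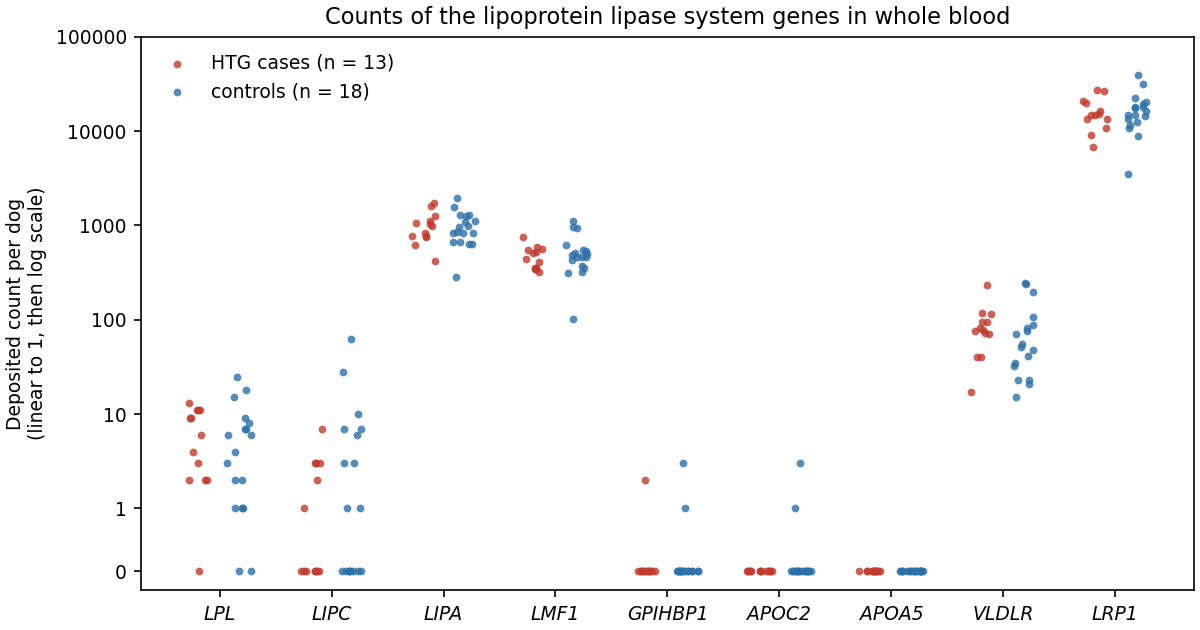
Deposited counts of the 9 members, 1 point per dog, for 13 HTG cases (red) and 18 controls (blue). The vertical axis is linear from 0 to 1 and logarithmic above; LRP1, LIPA, LMF1 and VLDLR were counted in every dog, LPL reached at most 25 counts and APOA5 stayed at 0 throughout.

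Among the lipases, LPL itself (ENSCAFG00000010161) had few counts in blood. It had 0 to 13 counts among cases (median 6, 12 of 13 dogs above 0) and 0 to 25 counts among controls (median 5, 16 of 18 dogs above 0). The ranges overlapped almost entirely, and the highest dogs were control 18 with 25 counts (1.10 CPM) and control 15 with 18 (0.898 CPM), followed on the CPM scale by case 05 (0.589 CPM, 13 counts). Scaled for library size, LPL averaged 0.292 ± 0.199 CPM in cases (SD, n = 13) and 0.272 ± 0.300 in controls (SD, n = 18). In the fit without the filter its log2 fold change, cases over controls, was 0.10 (SE 0.49, 95% interval -0.90 to 1.09, edgeR adjusted p = 0.951).

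LIPC (ENSCAFG00000016560), hepatic lipase, acts on remnants and high-density lipoproteins and is made by the liver. Its 19 counts in cases came from 6 of 13 dogs with at most 7 in any one, and its 128 counts in controls from 10 of 18. Control 07 alone held 62 of the control counts and control 08 another 28, and the other 16 controls shared 38. Levels were 0.0580 ± 0.0836 CPM in cases (SD, n = 13) and 0.320 ± 0.685 CPM in controls (SD, n = 18). The model gave a log2 fold change of -2.26 (SE 0.87, 95% interval -4.04 to -0.48), with an unadjusted p of 0.0136 and an edgeR adjusted p of 0.295, so LIPC was not called. The unadjusted p stayed under 0.05 in 30 of the 31 fits that left out 1 dog and in 5 of 7 alternatives. In the fit without the filter, 11.6% of all 25584 genes had an unadjusted p under 0.05. No fit that left out 1 dog removed controls 07 and 08 together. The exception among the dogs was control 07, without which the log2 fold change was -1.45 and the unadjusted p 0.0829. A permutation test on CPM, which makes no model of the counts, gave p = 0.113. Without controls 07 and 08 the other 16 controls had 0.102 ± 0.145 CPM (SD). Cases minus controls was then -0.044 CPM, against -0.262 CPM with all dogs. No p is given for that difference, because these dogs were left out for holding the most counts. On the high side LIPC had 3 counts in the 5 cases and 3 in the 5 controls, while on the low side it had 16 in 8 cases and 125 in 13 controls.

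LIPA (ENSCAFG00000015721), the lysosomal acid lipase, was counted in every dog. Counts ran from 422 to 1742 in cases and from 287 to 1950 in controls, which is 29.4 to 68.6 CPM with a median of 44.2 in cases and 29.9 to 57.8 CPM with a median of 40.6 in controls. Case 03 (68.6 CPM) and case 01 (61.8 CPM) lay above every control, case 07 (29.4 CPM) lay below every control, and the remaining dogs overlapped. Group means were 46.6 ± 10.1 CPM (SD, n = 13) and 42.5 ± 8.18 CPM (SD, n = 18), and 11 of 13 cases exceeded the control median. The log2 fold change was 0.13 (SE 0.10, 95% interval -0.07 to 0.34, edgeR adjusted p = 0.701), smaller than the spread between dogs. Among low side dogs it was 0.23 (unadjusted p = 0.0522 in the edgeR fit), and among high side dogs -0.04.

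Of the pair that matures and anchors the enzyme, LMF1 (ENSCAFG00000019603) had the narrowest spread of the 4 tested members. It ran from 17.9 to 30.5 CPM in cases with a median of 21.7, and from 13.3 to 26.0 CPM in controls with a median of 22.5. Case 07 had the highest and control 03 the lowest value of all 31 dogs, and between them the groups overlapped. Means were 22.2 ± 3.26 CPM (SD, n = 13) and 21.9 ± 3.32 CPM (SD, n = 18), with 6 of 13 cases above the control median. Its log2 fold change was 0.02 (SE 0.08, 95% interval -0.14 to 0.19, edgeR adjusted p = 0.956), and it took the other sign, -0.03, without case 07.

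GPIHBP1 (ENSCAFG00000028810), which endothelial cells of capillaries make, had 6 counts in all. Case 12 held 2 of them, control 06 held 3 and control 17 held 1, and the other 28 dogs were at 0. Over the summed libraries that is 0.00881 CPM, with an exact 95% binomial interval of 0.00323 to 0.0192 that covers counting error only. The cofactor APOC2 (ENSCAFG00000004610) had 0 counts in the 13 cases and 4 in the 18 controls, 3 of them in control 13 and 1 in control 08. For APOA5 (ENSCAFG00000013327) all 31 dogs were at 0, which allows a level of up to 0.00440 CPM over the summed libraries (3 counts). No fold is given for these genes, since counts in 3 dogs, in 2 dogs and in none support no fold. Permutation tests on their CPM gave p = 0.946 for GPIHBP1 and p = 0.654 for APOC2. The edgeR fit without the filter gave APOC2 an unadjusted p of 0.0438 (adjusted p = 0.403), from counts in 2 dogs only.

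**Figure D2:**
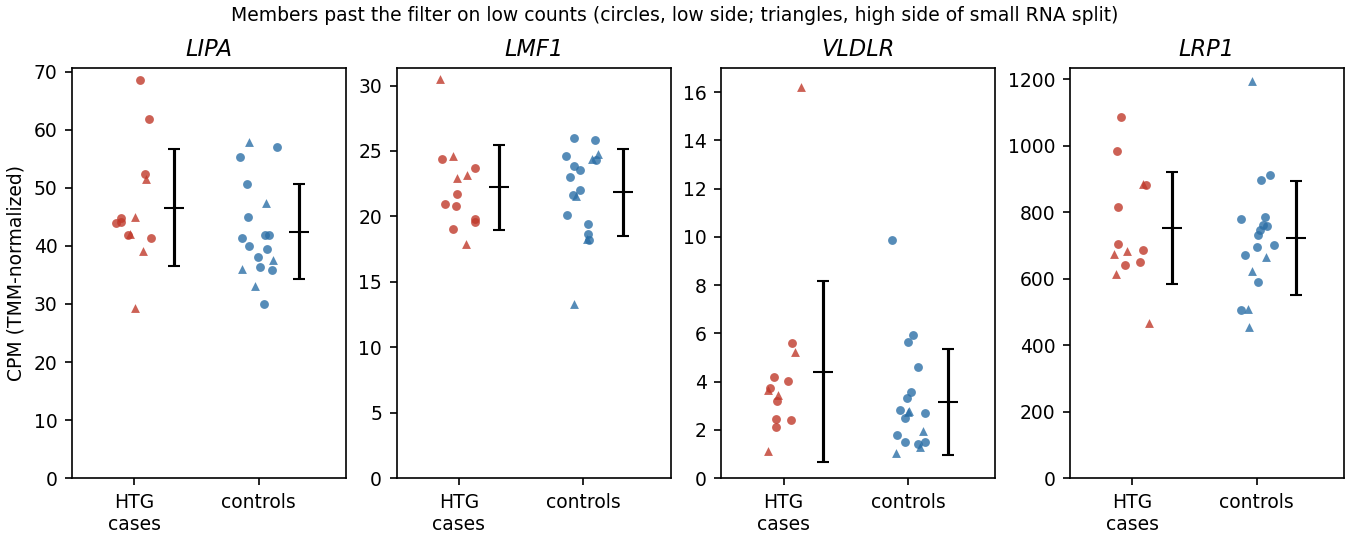
TMM-normalized CPM of the 4 members past the filter, 1 point per dog, with HTG cases in red, controls in blue, circles for the low side and triangles for the high side of the small RNA split. Black bars are the mean ± SD (13 cases, 18 controls); case 07 stands alone in the VLDLR panel at 16.2 CPM, and the groups overlap in every panel.

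VLDLR (ENSCAFG00000002028) varied most between dogs of the 4 tested members. This receptor binds triglyceride-rich lipoproteins and helps lipoprotein lipase act in fat, muscle and heart. Cases ran from 1.12 to 16.2 CPM with a median of 3.66, and controls from 1.05 to 9.89 CPM with a median of 2.72. Case 07 (16.2 CPM, 233 counts) and control 08 (9.89 CPM, 195 counts) were the highest dogs, and no other dog passed 5.91 CPM. Averages were 4.41 ± 3.75 CPM in cases (SD, n = 13) and 3.17 ± 2.20 CPM in controls (SD, n = 18), with 9 of 13 cases above the control median. The log2 fold change was 0.46 (SE 0.32, 95% interval -0.19 to 1.11, edgeR adjusted p = 0.658).

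Single dogs moved that value. Without case 07 it was 0.10, and without control 08 it was 0.65 (unadjusted p = 0.0347, edgeR adjusted p = 0.505). On the high side the 5 cases had 1.12, 3.44, 3.66, 5.22 and 16.2 CPM and the 5 controls 1.05, 1.31, 1.96, 2.75 and 2.77 CPM, so that 4 of the 5 cases lay above all 5 controls. The log2 fold change there was 1.58 (SE 0.60, unadjusted p = 0.0223, edgeR adjusted p = 1.00 over 13465 genes), and the exact permutation test on CPM gave p = 0.0714. On the low side it was -0.07 (SE 0.32), with 3.46 ± 1.16 CPM in 8 cases and 3.63 ± 2.41 CPM in 13 controls (SD). Whether the difference between cases and controls itself differed between the sides was not tested.

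LRP1 (ENSCAFG00000000178), the large endocytic receptor that clears remnants in the liver and is also carried by macrophages and monocytes, had 6705 to 27540 counts in cases and 3486 to 39559 in controls. The range was 466 to 1085 CPM in cases with a median of 687, and 456 to 1195 CPM in controls with a median of 715. Both ends of the range belonged to controls, control 03 lowest and control 13 highest. Mean levels were 751 ± 169 CPM (SD, n = 13) and 721 ± 171 CPM (SD, n = 18), and 5 of 13 cases exceeded the control median. The log2 fold change was 0.06 (SE 0.12, 95% interval -0.18 to 0.30, edgeR adjusted p = 0.913).

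The members past the filter were next compared with blood cell markers, because in bulk blood fewer cells of a type and less RNA per cell cannot be told apart. A marker score is the mean, over the tested markers of a cell type, of each gene's log2 CPM centred on its mean over dogs. Across the 31 dogs LRP1 followed the monocyte score, with r = 0.875 and rho = 0.810 (permutation adjusted p = 0.00032 for each over 32 relations, from the smallest p that 100000 resamples can give, 1e-05). Within the high side r was 0.915, within the low side 0.807, 0.874 in cases, 0.898 in controls and 0.865 without the 2 dogs farthest from the median score. All 9 monocyte markers measured correlated positively with LRP1, CCR2 most closely (r = 0.852). LIPA also followed the monocyte score, with r = 0.670 (permutation adjusted p = 0.00144) and rho = 0.725 (adjusted p = 0.00032), and again with all 9 markers. Within the sides that relation was 0.706 (high) and 0.639 (low), within the groups 0.844 (cases) and 0.540 (controls), and without the 2 farthest dogs it was 0.731.

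LIPA and LRP1 moved with each other over the 31 dogs, with r = 0.740 (permutation adjusted p = 6e-05 over 6 member pairs) and rho = 0.658 (adjusted p = 0.00054). It was 0.854 among high side dogs, 0.664 among low side dogs and 0.689 without the 2 dogs farthest in LIPA. The other 5 pairs of members had adjusted p of 0.18 or more for r. Cases minus controls, the monocyte score itself differed by 0.18 log2 units (permutation p = 0.142), and the summed markers ranged from 2141 to 4498 CPM in cases and from 1596 to 5113 CPM in controls. Once that score entered the model, the log2 fold change of LIPA went from 0.13 to 0.02 and that of LRP1 from 0.06 to -0.10 (unadjusted p = 0.169 in the edgeR fit).

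**Figure D3:**
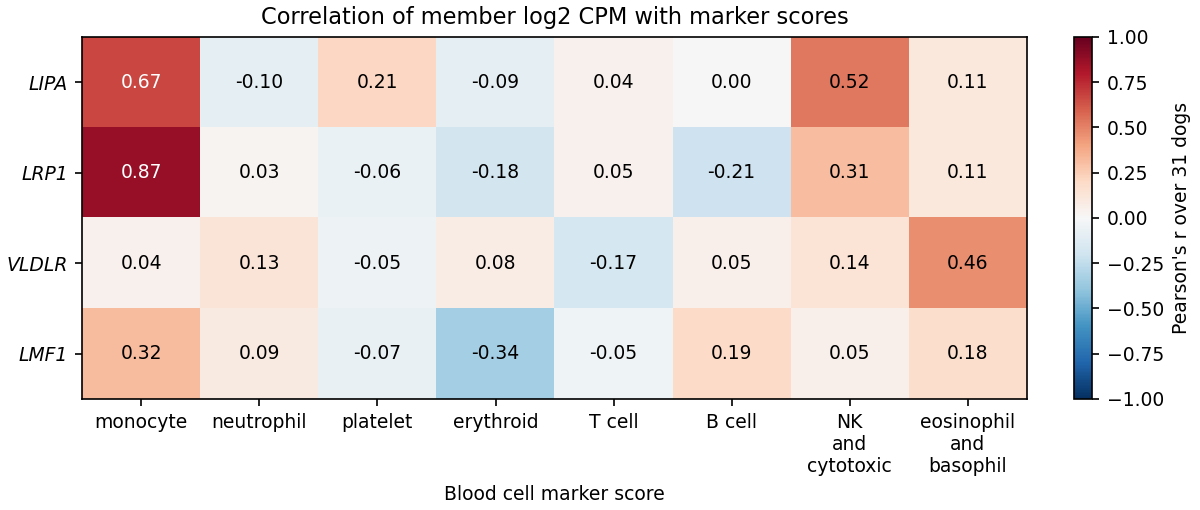
Pearson's r over 31 dogs between the log2 CPM of each member past the filter (rows) and each of 8 blood cell marker scores (columns), on a scale from -1 (blue) to 1 (red). The monocyte column holds the largest values, 0.875 for LRP1 and 0.670 for LIPA, while no value for LMF1 passed the test.

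LIPA had a further relation with the NK and cytotoxic score (r = 0.525, permutation adjusted p = 0.0282, rho = 0.528, adjusted p = 0.0264), which was 0.398 without the 2 farthest dogs, 0.355 among high side dogs, 0.587 among low side dogs, 0.241 in cases and 0.680 in controls. No relation of LMF1 with the 8 scores passed the test, and its values of r lay between -0.34 with the erythroid score and 0.32 with the monocyte score (adjusted p of 0.394 or more). VLDLR was nearest to the eosinophil and basophil score, at r = 0.463 (permutation adjusted p = 0.0681) and rho = 0.511 (adjusted p = 0.0264), so that only the rank measure passed, and r was 0.278 in cases and 0.679 in controls. The score rests on 5 of 10 listed markers, and 1 of them carried the relation. CCR3, the eotaxin receptor of eosinophils and basophils, had r = 0.793 with VLDLR, and without it the score had r = 0.19. The others had r of 0.41 (IL5RA), 0.35 (FCER1A), -0.11 (CPA3) and -0.14 (MS4A2).

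The genes most like each member, by Pearson's r of log2 CPM over the 31 dogs against the other 13917 genes past the filter, are given as a description, since the highest of so many values was picked. For LRP1 they were ANPEP (r = 0.928), a surface aminopeptidase of myeloid cells, CYFIP1 (0.905) and BPI (0.903), a granule protein of neutrophils. LIPA was closest to HMOX1 (0.897), the heme-degrading oxygenase, then to MPEG1 (0.792), a pore-forming protein of macrophages, and MMP14 (0.792). CCR3 led for VLDLR (0.793), followed by B4GALNT1 (0.782) and SYTL1 (0.780). The relation of VLDLR with CCR3 was 0.964 among high side dogs, 0.673 among low side dogs and 0.679 without case 07 and control 08. LMF1 had lower values, with TMEM135 (0.682), ZDHHC24 (0.676) and RNF40 (0.670) at the top.

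**Figure D4:**
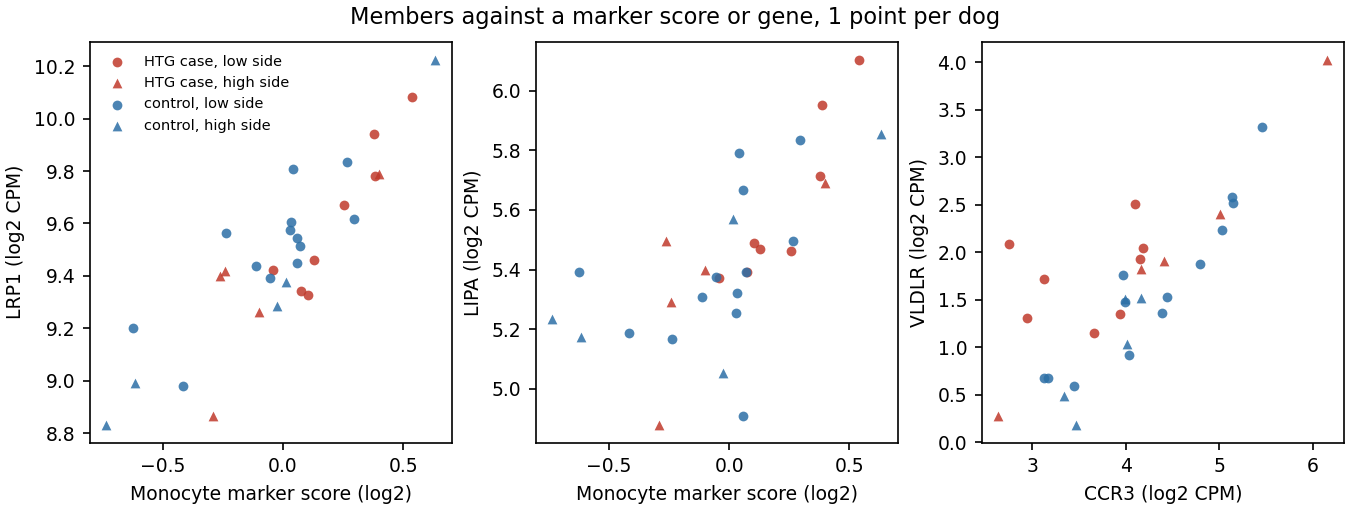
Log2 CPM of LRP1 and LIPA against the monocyte marker score and of VLDLR against CCR3, 1 point per dog, HTG cases in red and controls in blue, circles for the low side and triangles for the high side. The 3 relations have r = 0.875, 0.670 and 0.793 over 31 dogs, and case 07 and control 08 sit at the upper right of the VLDLR panel.

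Of the other marker scores, that of platelets passed the test between the groups. This score (10 of 12 markers measured, 0 of them called as single genes, 9 at an unadjusted p under 0.05 and all 9 higher in cases, against 9.81% of all genes tested) was higher in cases by 0.60 log2 units (permutation p = 0.00362, adjusted p = 0.0398 over 11 scores), its summed markers ranging from 1265 to 5123 CPM in cases and from 922 to 5323 CPM in controls. The neutrophil score (9 of 10 measured) differed by 0.67 (permutation p = 0.00962, adjusted p = 0.0529), with sums of 6172 to 10953 CPM in cases and 4172 to 18401 CPM in controls. The other 9 scores differed by -0.17 (T cell) to 0.69 (erythroid), with adjusted p of 0.213 or more. The liver score was SERPINA1 alone and the adipose score only CIDEA and PLIN4, so neither stands for its tissue here. No relation of the platelet or neutrophil score with a tested member passed the test, r over the 31 dogs lying between -0.095 and 0.21. The highest r within a side were on the high side and were not tested. They were 0.654 for VLDLR with the neutrophil score (-0.173 on the low side) and 0.506 for LIPA with the platelet score (0.321 on the low side). VLDLR had, once the platelet score entered the model, a log2 fold change of 0.74 (unadjusted p = 0.0531 in the edgeR fit) in place of 0.46. The part of platelet content in the values of the members was not tested further.

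None of the genes in 5 lists of the wider pathway was called, where 0.0359% of all genes tested were, so the counts of 0 say nothing particular about the lists. SORT1 and TFEB stood in 2 lists each. Of 21 regulators and partners of lipoprotein lipase, 9 passed the filter, 0 were called and the median log2 fold change was 0.11, against -0.02 over all 13918 genes. The smallest p-values were those of SDC1 (log2 fold change 0.24), a heparan sulfate proteoglycan that binds remnants, FURIN (0.15), a protease that cleaves the lipase and its inhibitors, and APOC1 (0.54), all with unadjusted p of 0.119 or more. APOC1, an apolipoprotein that inhibits the lipase, had 1169 counts over all dogs, while the inhibitors ANGPTL4, ANGPTL8 and APOC3 had 39, 7 and 1.

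Among 23 lipoprotein receptors with their chaperones and adaptors, 16 passed the filter, 0 were called, 2 had an unadjusted p under 0.05, against 9.81% of all genes tested, and the median was 0.05. SCARB1, the high-density lipoprotein receptor, had 43.3 ± 7.87 CPM in cases and 37.0 ± 5.87 CPM in controls (SD, log2 fold change 0.23, SE 0.09, edgeR adjusted p = 0.343). LRP12 had a log2 fold change of 0.62 (SE 0.31, edgeR adjusted p = 0.530).

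Around LIPA, 18 of 19 intracellular lipases and lysosomal genes passed the filter, 0 were called, 3 had an unadjusted p under 0.05, against the same 9.81%, and the median was 0.04. The 3 were TFE3 (0.17), a transcription factor of lysosomal genes, CTSD (0.21), a lysosomal protease, and LIPE (0.27), hormone-sensitive lipase, with edgeR adjusted p of 0.377, 0.385 and 0.407. Of 12 fatty acid uptake and activation genes, 8 passed the filter and 0 were called, with a median of 0.05 and the smallest p-values for ACSL4 (-0.22), ACSL5 (0.12) and ACSL1 (0.33), which attach coenzyme A to fatty acids. Of 11 transcription factors of lipase genes, 10 passed and 0 were called, with a median of 0.01 and 2 at an unadjusted p under 0.05, MLXIPL and SREBF1. MLXIPL, the carbohydrate-responsive factor, had 1.07 ± 0.555 CPM in cases and 0.645 ± 0.289 CPM in controls (0.70, SE 0.27, adjusted p = 0.343), SREBF1 had a log2 fold change of 0.25 (adjusted p = 0.372) and NR1H3 one of 0.25 (adjusted p = 0.611). DESeq2 called 0 genes in each of the 5 lists.

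**Figure D5:**
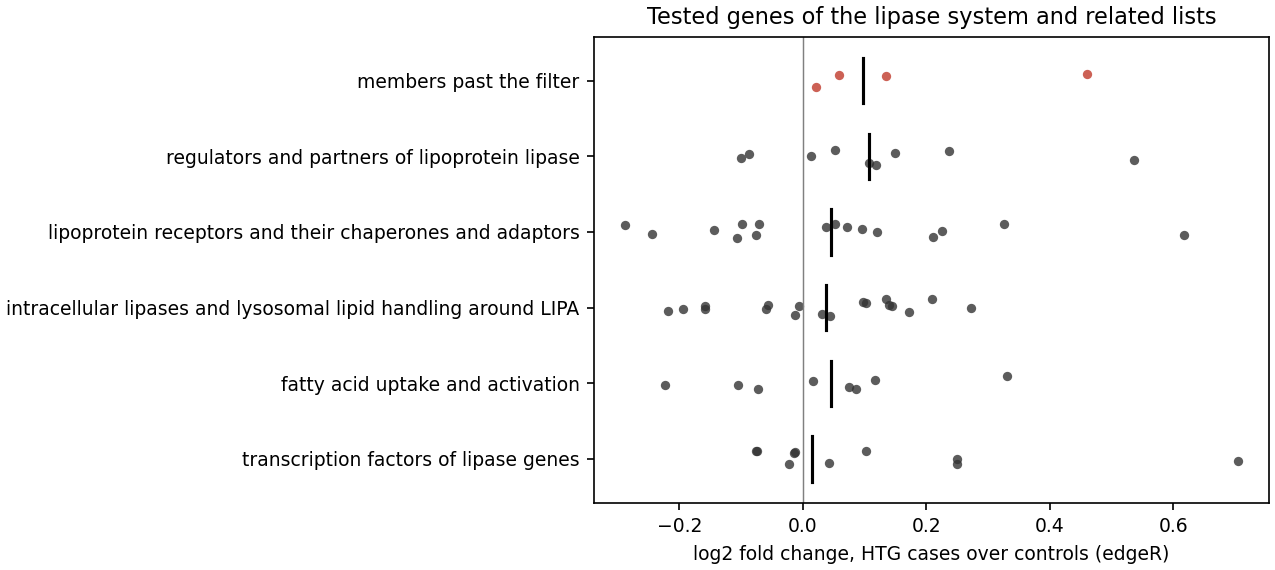
EdgeR log2 fold changes, HTG cases over controls, of the 4 members past the filter (red) and of the tested genes of 5 related lists (grey), 1 point per gene, with a vertical bar at each list's median. The medians lie between 0.01 and 0.11, and none of the genes shown passed an adjusted p of 0.05.

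Sex was the other label that differed between dogs. Between females and males, with group in the model, 17 of 13918 genes were called (0.122%), none of them a member. VLDLR had 4.63 ± 4.10 CPM in 13 females and 3.01 ± 1.56 CPM in 18 males (SD), a log2 difference of 0.63 (SE 0.30, unadjusted p = 0.0448, edgeR adjusted p = 0.959), where 4.89% of all genes tested had an unadjusted p under 0.05; both highest dogs, case 07 and control 08, were female. LIPA, LMF1 and LRP1 differed by -0.09, -0.01 and -0.16 log2 units, females over males. No member showed an interaction of sex and group, with unadjusted p of 0.519 to 0.879 for the 4 past the filter, and over all genes that test called 0, with 547 (3.93%) at an unadjusted p under 0.05.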

How the data were processed

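Whole blood RNA from 31 dogs was sequenced as paired reads after ribosomal RNA removal with a stranded low-input total RNA kit; the labels also call the molecule polyA RNA. The authors deposited raw counts per gene, and the submitters' processing notes name FastQC, Trimmomatic, HISAT2 and DESeq2; reads were aligned to canFam6 and counted where both mates mapped. The counting program, annotation and strand setting are not given in the sources used here. All 31 columns matched 1 sample each and 0 other columns were left out. Groups and sex came from the labels, which name no culture, batch or pairing; the study's methods tell of 10 pilot samples (5 cases, 5 controls) prepared earlier and of a batch term, but not which dogs, so none was fitted; p-values measure the spread between dogs.

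Counts were tested with edgeR 4.0.16 in R 4.3.3 (TMM, quasi-likelihood test, filterByExpr by group with a minimum count of 10, Benjamini-Hochberg adjustment over all genes tested, threshold 0.05). Members under the filter were read from the fit without it. DESeq2 1.42.0 and limma 3.58.1 were alternatives. CPM, counts scaled by library size, used TMM library sizes, and log2 CPM a prior count of 2. Values over the summed libraries and those said to be without TMM used raw total counts. Permutation tests were two-sided with 100000 resamples, exact where a group held fewer than 10 dogs (scipy 1.17.1); correlations were adjusted over 32 and 6 relations. The scripts were tested on simulated counts. Other alternatives were RLE size factors, covariates, each side of the small RNA split, a replicate block and each dog left out.

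The members, marker lists and pathway lists were chosen with earlier results of these data known. All members were named; from each pathway list the genes called were named, or else the 3 with the smallest p, except for some genes that are not reported here; the 3 genes most like a member were named by Pearson's r. CCR3 was followed further, control 07 and 08 were left out of CPM comparisons of the members because of their LIPC counts, and sides were tested in CPM after the data were seen. Intervals of fitted fold changes include the spread between dogs. The binomial interval and the floors cover counting error only. The reference table used here names genes on another assembly, so no coordinates are given; all 9 members matched it by symbol.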

Additional observations from a re-analysis of the deposited data

Results flagged for a closer look

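Crossing case or control with the sides of the small RNA split gave groups of 5, 5, 8 and 13 dogs. In all but the 13 low side controls, too many for it, the highest or lowest dog was set against the rest by Dixon's criterion for each of the 4 members past the filter. Of these 12 comparisons, of which chance flags about 1 in 20, 2 met it. On the high side, case 07 had 16.2 CPM of VLDLR against 5.22 CPM in the next of the 5 cases. On the same side, control 13 had 1195 CPM of LRP1 against 665 CPM in the next of the 5 controls, and it also had the highest monocyte score of all dogs, 0.632 log2 units above the mean.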

How the results depend on the processing

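LIPA, LMF1, VLDLR and LRP1 were not called in any of 13 alternatives, nor LPL and LIPC in any of 7, nor any of these 6 with 1 dog left out; APOA5, at 0, had no fit. The count of called genes over the whole table was less stable. Against 5, it was 0 within the high side, 0 within the low side, 0 with dog number as a replicate block, 0 with limma-voom and 0 with the platelet score as a covariate, 1 where at least 10 counts were required in every dog and 84 with DESeq2. Leaving out 1 dog gave 1 (without case 01) to 154 (without control 03), and the second highest count was 23. Control 03 had 14524659 total counts and a TMM library size of 7644950. It moved by more than 1.5 times for 17 of 31 dogs, namely cases 01, 03, 05, 07, 08, 09 and 12 and controls 03, 06, 07, 10, 12, 13, 14, 16, 17 and 18. Several fold changes took the other sign in some alternatives, also that of VLDLR, which was 0.46 with all dogs. On the log2 scale LIPA was -0.037 on the high side, LRP1 -0.056 on the high side and -0.095 with the monocyte score, VLDLR -0.070 on the low side, and LMF1 -0.074 on the low side, -0.0054 with limma-voom and -0.0030 with the monocyte score. With 1 dog left out LMF1 ran from -0.027 (without case 07, and -0.013 without control 03) to 0.040, LPL from -0.029 (without case 05, and -0.016 without case 13) to 0.37, LIPC from -2.72 to -1.45, LIPA from 0.075 to 0.18, VLDLR from 0.10 to 0.65 and LRP1 from 0.0044 to 0.12. As mean CPM, cases minus controls, the sign changed without TMM for LPL (-0.0177), LMF1 (-1.52) and LRP1 (-18.3), where LIPA went from 4.13 to 0.937 and VLDLR from 1.25 to 0.798, without controls 07 and 08 for LPL (-0.00136), on the high side for LIPA (-0.989) and LRP1 (-25.4), and on the low side for LMF1 (-1.15) and VLDLR (-0.163). The cause was not tested. The VLDLR relation with its marker score was 0.19 without CCR3. Of the other 28 marker relations, none past the threshold, 19 changed sign in some alternative. Same-numbered cases and controls did not deviate together (13 pairs, r from -0.44 to 0.26, 3 over 0.1, 1 dog nearest its own number). That alone cannot show whether the numbers pair dogs. The labels name no pairing, and the study counts missing age and sex matching among its limits. With the block LPL was 0.78 (0.10 without it), VLDLR 0.26 and LIPC -0.89. For GPIHBP1, APOC2 and APOA5, with 6, 4 and 0 counts in all, no difference was detectable at this depth.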
